A study of Mus musculus with 68 samples.

Results

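Genes of DNA replication and mitosis were followed in mouse embryonic fibroblasts (MEFs) treated with tunicamycin (TM), which blocks N-linked glycosylation in the endoplasmic reticulum (ER) and so causes ER stress. The 47 genes were listed by name: 18 of DNA replication, 9 of the G1 phase and the G1/S transition, and 20 of mitosis. Of these, 45 were found among the 13197 genes of the founder tables and 44 among the 12803 genes of the F1 tables, out of 13378 genes in either. The replication genes Cdt1 and Gins2 matched no gene of either set, and E2f2 was found in the founder set only. All 45 and all 44 were kept by the filter on low values for the effect averaged over genotypes.

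The MEFs came from the 8 founder strains of the Collaborative Cross, A/J (A), C57BL/6J (B6), 129S1Sv/ImJ (129), NOD/ShiLtJ (NOD), NZO/H1LtJ (NZO), CAST/EiJ (CAST), PWK/PhJ (PWK) and WSB/EiJ (WSB), and from 5 F1 crosses of a B6 mother with 129, NOD, NZO, CAST or WSB (x129, xNOD, xNZO, xCAST and xWSB). Cells received 2 ug/ml of TM, or 0.1% DMSO as control, for 4 h, and total RNA was sequenced after poly(A) selection in 40 founder libraries (18 control, 22 TM) and 28 F1 libraries (14 and 14), with 2 or 3 libraries per genotype and treatment. Each genotype was 1 preparation that mixed cells of several female embryos of a litter, and the age of the embryos was not given in the sources used here. Replicates were therefore wells of 1 preparation, and p-values measure the spread between such wells. For the same reason a strain and its MEF preparation cannot be told apart in any comparison of levels below.

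Proliferating cells switch these genes on in order. Cyclin D with Cdk4 and cyclin E with Cdk2 release the E2F factors, which raise the genes that license origins, build the replication fork and supply nucleotides, and the MuvB complex with B-MYB and FOXM1 then raises the genes of mitosis through an element called CHR. In cultures that grow slowly, both groups are low, and their level is widely read as a measure of growth. ER stress is known to slow the cell cycle in G1, and a lower translation of cyclin D1 through the kinase PERK is a well known step of that arrest. No growth rate or cell count was used here, so the levels below are RNA levels only.

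The promoters shown here are examples that hold an E2F or a CHR word. Not every replication member held an E2F word and not every mitosis member a CHR word, as counted below. RefSeq windows on GRCm38.p6, from 250 bases before to 50 bases after the gene's start, were matched to 37 of the 45 members and to 10349 of all 13378 genes. Each line below gives the 160 bases before the start, 5′ to 3′ on the strand of the gene, with the E2F words TTTCCCGC, TTTCGCGC, TTTGCCGC and TTTGGCGC, the CHR word TTTGAA and the word CCAAT in capitals, on either strand. Words that overlap appear as 1 longer run of capitals. The first 3 genes act in replication and the last 3 in mitosis.
Cdc6 (chr11:98907991-98908150, plus strand): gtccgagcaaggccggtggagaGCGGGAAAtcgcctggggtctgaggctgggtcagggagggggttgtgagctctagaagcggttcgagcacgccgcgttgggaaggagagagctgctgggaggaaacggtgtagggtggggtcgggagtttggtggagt
Mcm5 (chr8:75109349-75109508, plus strand): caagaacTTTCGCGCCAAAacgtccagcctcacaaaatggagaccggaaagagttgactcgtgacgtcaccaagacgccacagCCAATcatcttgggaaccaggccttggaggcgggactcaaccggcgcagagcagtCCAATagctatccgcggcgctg
Mcm6 (chr1:128359706-128359865, minus strand): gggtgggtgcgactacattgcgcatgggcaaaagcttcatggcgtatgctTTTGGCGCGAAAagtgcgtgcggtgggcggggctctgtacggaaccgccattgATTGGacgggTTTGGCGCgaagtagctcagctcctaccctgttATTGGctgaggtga
Cdk1 (chr10:69352913-69353072, minus strand): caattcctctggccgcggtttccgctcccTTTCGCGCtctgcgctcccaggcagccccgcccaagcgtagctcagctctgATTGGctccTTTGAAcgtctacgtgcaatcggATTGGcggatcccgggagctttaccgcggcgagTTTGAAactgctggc
Top2a (chr11:99024190-99024349, minus strand): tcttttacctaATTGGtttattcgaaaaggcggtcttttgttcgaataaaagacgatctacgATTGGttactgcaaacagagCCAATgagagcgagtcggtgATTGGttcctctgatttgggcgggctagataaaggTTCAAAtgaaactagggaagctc
Kif11 (chr19:37376222-37376381, plus strand): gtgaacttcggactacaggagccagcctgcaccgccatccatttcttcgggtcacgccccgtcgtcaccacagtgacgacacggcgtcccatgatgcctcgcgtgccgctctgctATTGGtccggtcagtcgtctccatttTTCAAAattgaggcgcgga

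The E2F word of Cdc6 lies 138 bases before the start, and Mcm6 has 3 E2F words in its window. Cdk1 holds both kinds, an E2F word 131 bases and CHR words 71 and 15 bases before the start. Kif11 has a CHR word 19 bases and a CCAAT 45 bases before the start. An E2F word was found in 7 of 14 matched replication members and in 1 of 17 mitosis members (5.88%), beside 4.5% of all matched genes. A CHR word was found in 12 of 17 mitosis members (70.6%) and 3 of 14 replication members (21.4%), beside 14.2% of all. CCAAT was found in 15 of 17 mitosis members (88.2%) and 12 of 14 replication members (85.7%), beside 42.8% of all. The ER stress words ERSE (CCAAT, then any 9 bases, then CCACG), at which ATF6 acts, and CARE (TGATGNAA), at which ATF4 acts, were found in 0 of 37 members, beside 0.174% and 2.73% of all genes. A match is a stretch of letters and not a measured binding site.

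Values are the authors' normalised signal per gene, scaled to a common library size but not divided by gene length, so levels are compared between libraries and not between genes. The founder and F1 sets were scaled separately, and levels are compared within a set only. Reads on genes ranged from 7091923 to 21530282 per founder library and from 6442976 to 29528457 per F1 library. All 10 listed fibroblast markers were found in both sets, with a summed level of at least 13110 in every library. The TM response itself was present everywhere: Hspa5, Ddit3 and Herpud1, which are induced by ER stress, were raised in all 13 genotypes, Hspa5 by 2.82 ± 0.07 (log2 ± SE) averaged over the founders and by 2.90 ± 0.06 averaged over the crosses. In WSB control replicate 2 the summed level of 5 endothelial markers was 19.85 against 3.235 in the other control, that of 3 epithelial markers was 46.28 against 4.853, and that of 8 myeloid markers was 30.77 against 8.235, so the main results on WSB are also given without it. Of the F1 controls, xNOD replicate 3 and xNZO replicate 3 had raised endothelial markers too (19.03 and 11.67). Such markers also differed between genotypes. Control means of the myeloid sum ran from 17.22 in PWK to 61.36 in A among founders. Those of the epithelial sum ran from 5.343 in 129 to 72.03 in PWK. Among crosses, Des, the 1 muscle marker found, ran from 5.335 in xCAST to 290 in xNZO. The part of such cells in the levels below was not tested.

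The first question was how far the 13 genotypes differed in these genes without TM. Members stood highest in CAST MEFs and in the CAST cross, and lowest in WSB and 129 MEFs and in the WSB cross. In the F test of limma on control libraries (adjusted p below 0.01), the control level of 29 of 45 members differed between founder strains (64.4%), where 35.8% of all genes did. Between the crosses it differed for 38 of 44 members (86.4%), where 21.4% of all genes did. As RNA came from whole cultures, a smaller share of cells in cycle and less RNA of these genes per cell cannot be told apart.

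An index was formed for each library as the mean over members of log2(value + 0.1), minus the mean of the genotypes' control means of its set. It has no test, since the members were chosen with results known. The replication index of founder controls ran from -0.39 in WSB through -0.20 in NZO, -0.15 in 129, -0.07 in B6, 0.04 in PWK, 0.09 in A and 0.14 in NOD to 0.54 in CAST. The span from WSB to CAST was 0.92, or 1.9 fold, with a standard deviation between replicates of 0.072. Both CAST controls (0.52 and 0.55) were above every other founder control, and PWK, A and NOD overlapped.

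The mitosis index of founder controls ran from -0.37 in 129 through -0.34 in WSB, -0.10 in NZO, 0.03 in B6, 0.04 in PWK, 0.06 in NOD and 0.18 in A to 0.49 in CAST, a span of 1.81 fold with a replicate standard deviation of 0.086. CAST was again above all others, and B6, PWK and NOD overlapped. The WSB controls were far apart: control 2 with the raised markers was at -0.52 and control 3 at -0.16, so that WSB and 129 overlapped. The part of those other cells in the low level of control 2 was not tested. The index of the G1 and G1/S members spanned less, from -0.27 in WSB to 0.24 in CAST.

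Among the crosses the span was wider. The replication index of controls was -1.06 in xWSB, 0.06 in xNZO, 0.19 in x129, 0.22 in xNOD and 0.59 in xCAST, a span of 3.14 fold. The mitosis index was -1.33 in xWSB, -0.02 in xNZO, 0.22 in xNOD, 0.27 in x129 and 0.85 in xCAST, a span of 4.53 fold. The 3 xWSB controls were between -1.46 and -1.22 on the mitosis index, far below all others, and the 2 xCAST controls were at 0.81 and 0.90. The xNOD and x129 controls overlapped on both indices.

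**Figure D1:**
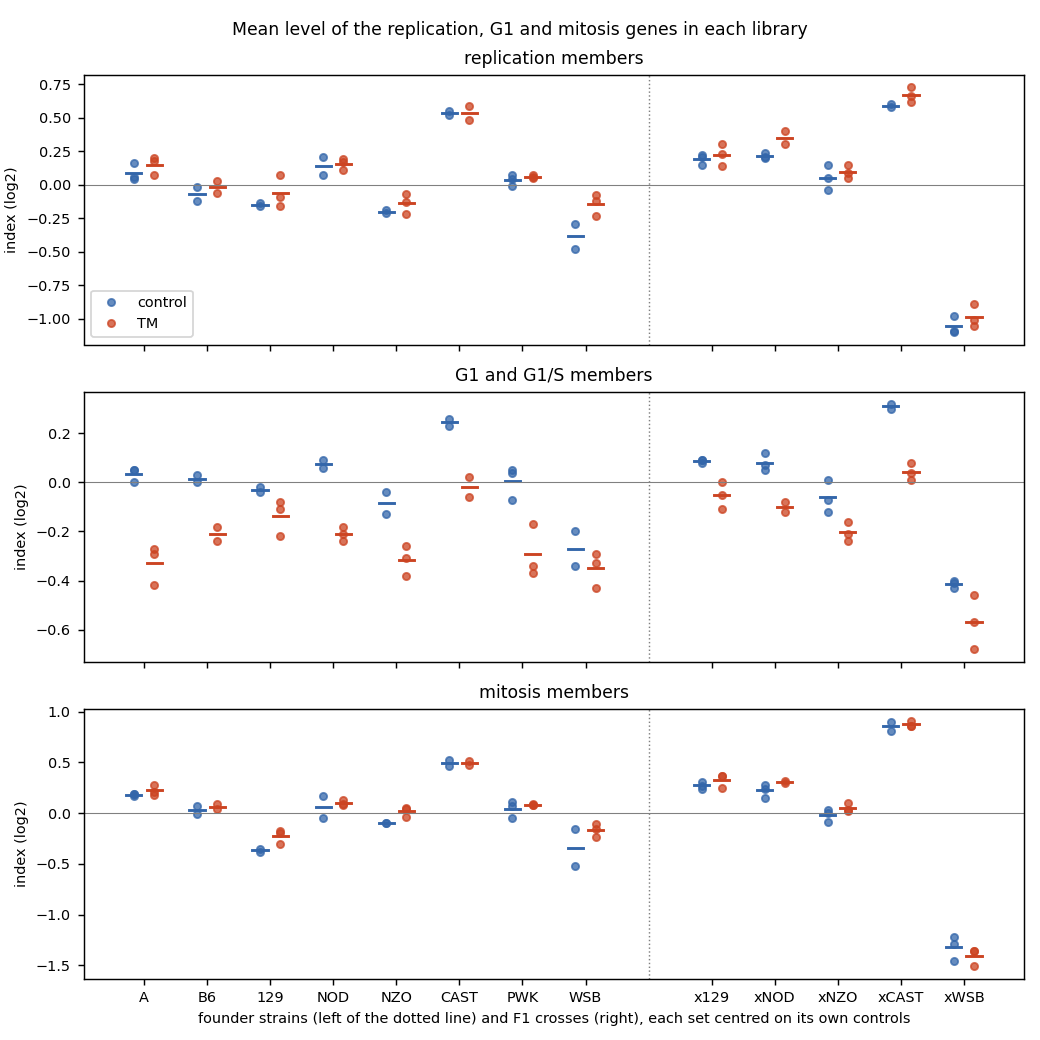
The panels plot the replication, G1 and G1/S, and mitosis index (log2, y axis) of each library by genotype (x axis), founders left and crosses right of the dotted line, with points for libraries (blue control, red TM) and bars for means. CAST and xCAST stood highest and xWSB lowest for replication and mitosis, with control and TM points close together, while for the G1 and G1/S members TM points lay below controls in 12 of 13 genotypes.

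The balance between replication and mitosis genes varied with genotype. The replication index minus the mitosis index of founder controls was highest in 129 (0.19 and 0.24), whose mitosis genes stood lower than its replication genes, and lowest in A and NZO (mean -0.10 in both). WSB was at -0.05 with both controls and at -0.13, below A and NZO, in control 3 alone. Of the crosses, xWSB was highest at 0.21 to 0.36 and xCAST lowest at -0.30 and -0.23. In both xWSB and xCAST the mitosis genes therefore lay further from the mean of the crosses than the replication genes did.

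**Figure D2:**
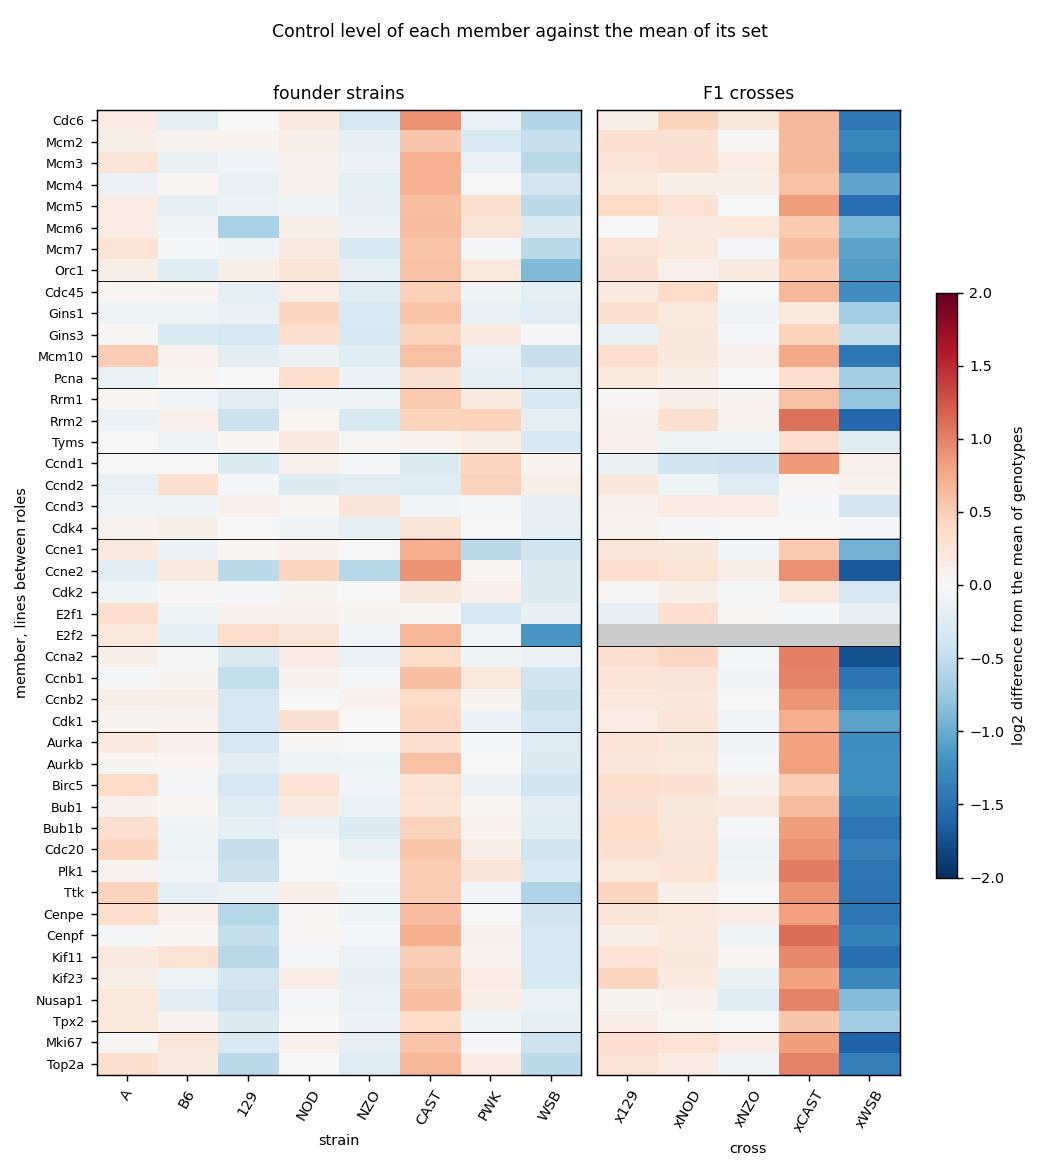
The heat maps give the mean control level of each member (rows, grouped by role) in each genotype (columns) as a log2 difference from the mean of the genotypes of its set (colour scale, red higher, grey where the gene was not in the tables). The CAST column was the highest for 37 of 45 members, xCAST for 39 of 44, and xWSB the lowest for 40 of 44.

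Member by member, CAST was the highest founder for 37 of 45 (82.2%) and WSB or 129 the lowest for 20 and 16. Over all genes CAST was the highest for 17.6%, WSB the lowest for 13.6% and 129 for 10.8%. Without WSB control 2, WSB was the lowest for 14 members and 129 for 20, and over all genes for 16.9% and 10.6%. The 129 strain was lowest for 13 of the 20 mitosis members. xCAST was the highest cross for 39 of 44 members, all 20 mitosis members among them, and xWSB the lowest for 40, all 16 replication and all 20 mitosis members among them. Over all genes these shares were 29.3% and 30.5%.

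The licensing genes, which load the MCM helicase onto origins, differed between founders in 8 of 8 members, where 35.8% of all genes did. Cdc6, the loader that recruits the helicase, had control values of 21.2 and 19.9 in CAST and of 6.45 and 8.24 in WSB, with the other strains between 7.91 and 14.3. CAST lay above all others and WSB reached into the range of NZO, and the span of 2.79 fold passed the test (adjusted p = 0.000232). Orc1, the largest subunit of the origin recognition complex, was at 15.2 and 16.8 in CAST against 6.33 and 5.15 in WSB. These did not overlap with each other or with any other strain, and the span was 2.77 fold (adjusted p = 0.000321).

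The cyclins of the G1/S transition followed with wide spans. Ccne1, a cyclin E that activates Cdk2, was at 114 and 110 in CAST, and at 42.7, 46.6 and 49.9 in PWK, with the span past the test. Ccne2, the other cyclin E, was at 21.5 and 18.3 in CAST against 8.195 and 6.13 in NZO, a span of 1.47 on the log2 scale. E2f2, an activating E2F factor, had the widest span of all, 1.82, and did not pass, with values of at most 2.24 that rest on 2 to 37 reads per library.

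The cyclins D, which answer growth signals, had another order. Ccnd1 was highest in PWK (735, 701 and 690) and lowest in CAST (446 and 421) and 129 (444 and 425), which overlapped, a span of 1.64 fold (adjusted p = 0.000199). Ccnd2 was highest in PWK too (815 to 866), and was lowest in NOD (426 and 616) and CAST (466 and 572), which overlapped with each other and with A and NZO, a span of 1.66 fold (adjusted p = 0.00993). Both cyclins thus had their highest mean in PWK and CAST near the bottom.

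In the crosses the mitosis members differed in 20 of 20, the replication members in 14 of 16 and the G1 and G1/S members in 4 of 8. Of all genes, 21.4% did. Ccna2, the cyclin of S phase and G2, was at 53.5 and 57.8 in xCAST against 7.57, 8.94 and 8.03 in xWSB, a span of 6.74 fold (adjusted p = 1.95e-08). Rrm2, the regulated subunit of ribonucleotide reductase, was at 359 and 394 against 61.2, 57.3 and 57.8, a span of 6.39 fold (adjusted p = 4.01e-09). Top2a, the topoisomerase that untangles sister chromatids, was at 145 and 169 against 26.1, 28.3 and 37.1, a span of 5.17 fold. All 3 genes separated xCAST and xWSB by far more than their replicates, with the other crosses between. Plk1, Kif11, Cenpf, Ccnb1 and Mki67 spanned between 5.49 and 5.6 fold in the same way, and Mcm5 spanned 5.16 fold.

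Other members differed less between crosses. Cdk4, the kinase of cyclin D, ranged over 1.08 fold among the crosses (adjusted p = 0.981), with 221 and 200 in xCAST and 264, 202 and 172 in xWSB. Tyms, thymidylate synthase, spanned 1.5 fold and Ccnd2 1.4 fold, and neither passed the test (adjusted p = 0.0414 and 0.195). The low level of xWSB was thus not seen in Cdk4, whose replicates within xWSB spread more than the crosses did.

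The second question was how the members changed with TM, and whether replication and mitosis genes changed differently. As groups both changed little. The replication index was 0.066 higher with TM averaged over founders and 0.071 higher averaged over crosses, and the mitosis index 0.073 and 0.032 higher, beside replicate standard deviations of 0.063 to 0.086. Without Cdc6, a setting chosen after seeing the data, the replication index moved by -0.004 and -0.003, so its rise came from that 1 gene. The difference between both indices moved by -0.007 in founders (from -0.06 in NZO to 0.073 in WSB) and by 0.039 in crosses (from -0.03 in xNZO to 0.156 in xWSB). The replicate standard deviation of that difference was 0.075 and 0.061. The G1 and G1/S index fell by 0.234 in founders and by 0.177 in crosses. The founder index held E2f2, which was not in the F1 tables. With only members of a mean of at least 2, which left E2f2 out, the founder change was -0.174. With all members, TM libraries lay below controls in 12 of 13 genotypes, with an overlap in WSB. In WSB without control 2, TM minus control went from 0.24 to 0.15 for replication, from 0.17 to -0.01 for mitosis and from -0.08 to -0.15 for G1 and G1/S.

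Averaged over the 8 founders, 9 of 45 members were raised and 10 lowered (22.2%) at an adjusted p below 0.01 by limma, where 20.5% of all genes were raised and 21.9% lowered. Over the 5 crosses 6 of 44 were raised (13.6%) and 8 lowered (18.2%), where 16.9% and 18.7% of all genes were. The members were thus called about as often as genes at large. Their median change was -0.015 in founders and -0.034 in crosses, beside -0.037 and -0.04 over all genes tested. All 6 members raised in the crosses were among the 9 raised in founders (66.7% of those), and 7 of the 8 lowered in the crosses (87.5%) were among the 10 lowered in founders (70.0%). The sign was the same in both sets for 39 of 44 members. The same shares over all genes were not computed, so this overlap cannot be called particular to the members.

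**Figure D3:**
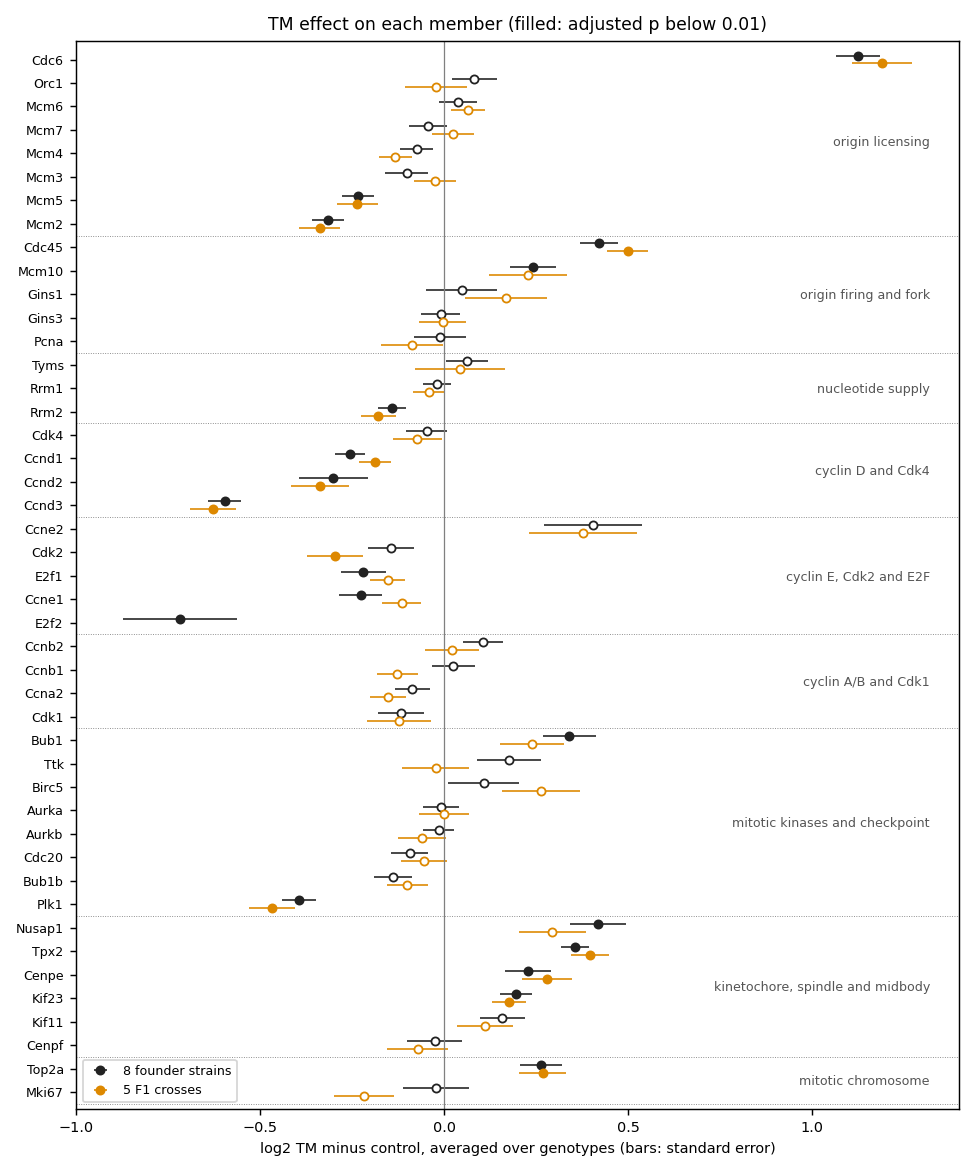
Each row is a member, grouped by role, and the x axis is the log2 difference of TM from control averaged over the 8 founders (black) or the 5 crosses (orange), with bars for the standard error and filled points for an adjusted p below 0.01. Cdc6 stood apart on the right at 1.12 and 1.19, and E2f2 and Ccnd3 lay furthest left at -0.72 and -0.60 in founders.

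By role, 1 of the 8 licensing genes was raised, 2 were lowered and 5 were not called, in both sets. Of all genes, 20.5% were raised and 21.9% lowered in founders, and 16.9% and 18.7% in crosses. Cdc6 was raised by 1.12 ± 0.06 in founders (adjusted p = 1.24e-15) and by 1.19 ± 0.08 in crosses (adjusted p = 5.35e-11), which is 2.18 and 2.28 fold. Mcm2 and Mcm5, subunits of the MCM helicase, fell by 0.32 ± 0.04 and 0.24 ± 0.04 in founders (adjusted p = 4.04e-07 and 4.04e-05), and both were lowered in crosses too. The other MCM subunits, Mcm3, Mcm4, Mcm6 and Mcm7, and Orc1 were not called in either set, with changes from -0.13 to 0.08. Of the 6 helicase subunits, 2 were thus lowered and 4 were not called. These few genes were not tested against the shares of all genes.

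Cdc6 was the only member raised within single genotypes (adjusted p below 0.01 and at least 1.5 fold), and was so in 5 of 8 founders and 4 of 5 crosses. When each library of the genotype was left out in turn, the call held throughout in B6, PWK and x129. It was lost without either TM library of CAST, any 1 TM library of NOD, control 2 or TM 1 of WSB, control 2 or TM 1 of xCAST, any 1 control of xNOD, or any 1 of 5 of the 6 libraries of xNZO (adjusted p = 0.0102 to 0.0473). The call in CAST was also lost under no filter, a mean of at least 2 and median-of-ratios scaling (adjusted p = 0.0103 to 0.0113). Over all genes, 8.15% were raised in at least 1 founder and 7.05% in at least 1 cross. In B6 it rose from 10.0 and 9.32 to 26.7 and 26.9, or 1.46 ± 0.12 (adjusted p = 1.27e-07). In WSB it rose from 6.45 and 8.24 to 22.1, 16.4 and 24.7, and in NOD from 13.3 and 11.9 to 28.9, 29.6 and 27.7. Each of these strains went up by 2.28 to 2.83 fold with no overlap. In CAST it rose from 21.2 and 19.9 to 33.3 and 34.3, and in PWK from 8.69, 10.5 and 11.3 to 16.5, 17.2 and 19.7. These were smaller log2 changes of 0.72 and 0.81. CAST, the strain with the highest control level, had the second smallest change of the 8 strains.

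The remaining founders showed the same direction without a call. Cdc6 was at 14.3, 11.7 and 11.3 in A controls and at 29.8, 22.9 and 31.2 with TM (adjusted p = 0.0522). It was at 7.91 and 9.40 in NZO controls and at 21.8, 22.3 and 30.0 with TM (adjusted p = 0.0255). It was at 11.5 and 10.4 in 129 controls and at 16.6, 16.5 and 19.6 with TM (adjusted p = 0.0927). In each of these strains all TM libraries lay above all controls. Few genes of any kind were raised in A, NZO and 129, at 0.346%, 0.32% and 0.315% of all genes. The share was 5.04% in B6, 2.54% in CAST, 1.45% in NOD, 6.36% in PWK and 2.85% in WSB.

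In the crosses Cdc6 went from 7.70 and 8.44 to 19.2, 18.6 and 21.4 in xCAST, and from 6.97, 4.64 and 5.26 to 12.03, 12.2 and 17.2 in x129. It went from 6.16, 7.04 and 7.78 to 14.3 and 16.03 in xNOD, and from 5.98, 5.86 and 6.05 to 13.8, 13.6 and 12.3 in xNZO. These 4 were called, and TM libraries did not overlap with controls. In xWSB, where the gene was lowest, it went from 1.76, 1.44 and 2.38 to 3.57, 4.30 and 4.65, again without overlap (adjusted p = 0.136). Of all genes, 4.88% were raised in x129, 2.52% in xCAST, 3.69% in xNOD, 1.44% in xNZO and 0.185% in xWSB. The log2 change ran from 1.11 to 1.28 among the crosses, while the control level of Cdc6 spanned 4.24 fold. With a pseudocount of 1 the log2 change ran from 0.86 in xWSB to 1.19 in xCAST.

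**Figure D4:**
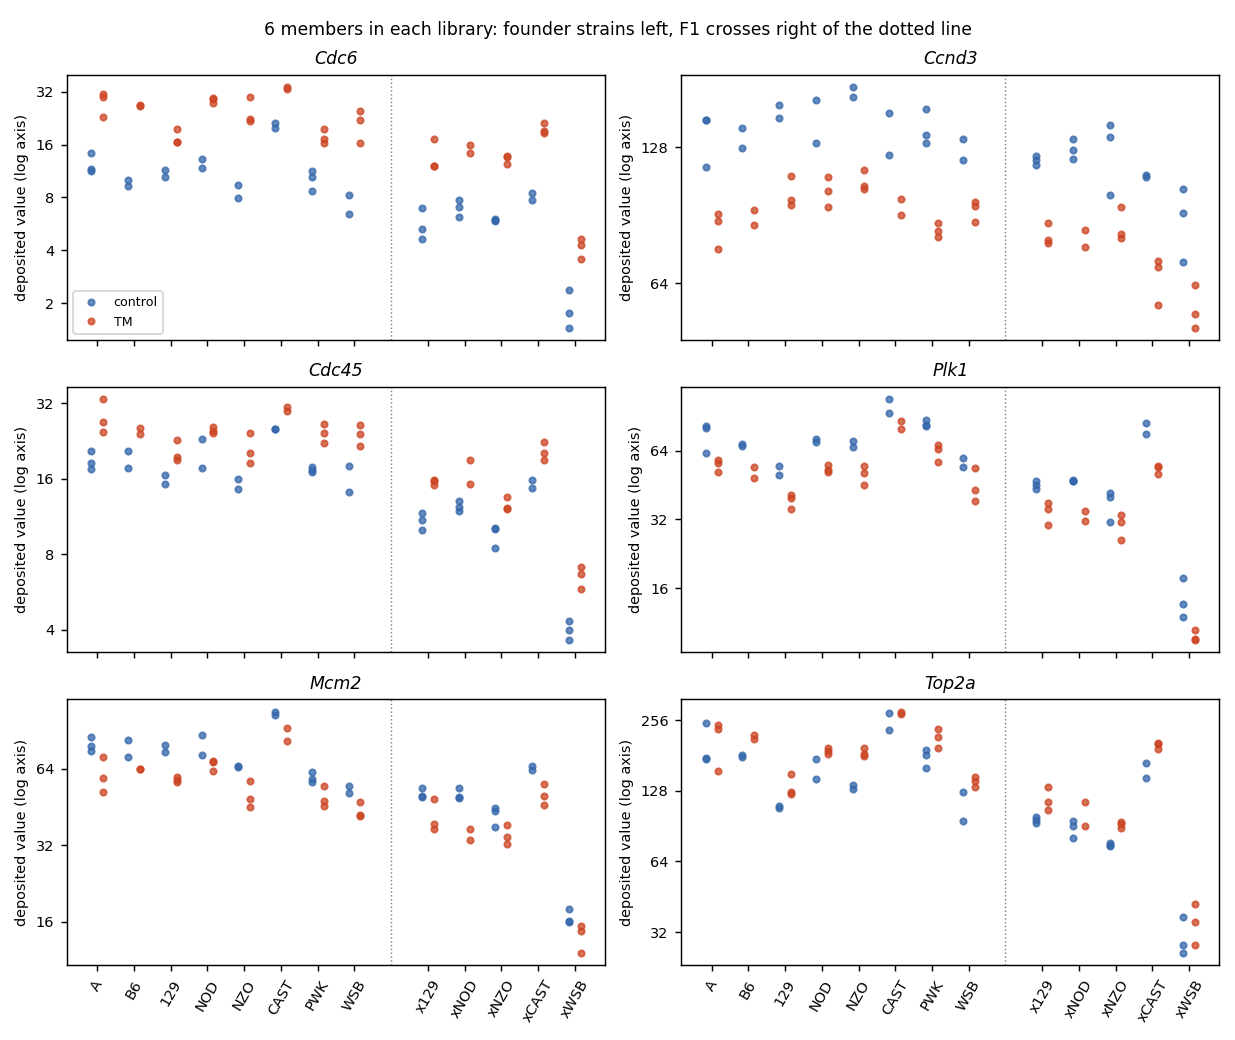
Each panel plots the deposited value (log axis) of 1 member in each library by genotype, founders left and crosses right of the dotted line, in blue for control and red for TM. Cdc6 and Cdc45 with TM lay above their controls and Ccnd3 below in all 13 genotypes, at levels that followed the genotype.

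Of the genes that fire origins and form the fork, Cdc45, which joins the MCM ring to make the active helicase, was raised by 0.42 ± 0.05 in founders (adjusted p = 4.22e-08) and by 0.50 ± 0.06 in crosses (adjusted p = 1.25e-07). In B6 it went from 17.7 and 20.6 to 25.6 and 24.0, in xWSB from 4.36, 3.99 and 3.64 to 7.14, 6.68 and 5.85, and TM libraries lay above all controls in each of the 13 genotypes. Mcm10, which helps to load Cdc45, was raised in founders by 0.24 (adjusted p = 0.00156) and was at 0.23 in crosses (adjusted p = 0.0813). Gins1, Gins3 and Pcna, the sliding clamp, were not called, Pcna being at -0.01 in founders and -0.09 in crosses. Of the nucleotide genes, Rrm2 fell by 0.14 and 0.18 (the call in crosses was lost without xCAST control 3 or xNOD TM 2), while Rrm1 and Tyms (0.06 and 0.04) were not called.

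The cyclins D were lowered in 3 of 3, in both sets, where 21.9% of all genes were in founders and 18.7% in crosses. Ccnd3 fell by 0.60 ± 0.04 in founders (adjusted p = 1.53e-12) and by 0.63 ± 0.06 in crosses (adjusted p = 2.34e-08). It went from 128 and 141 to 92.9 and 85.9 in B6, from 156, 131 and 136 to 83.3, 86.9 and 81.0 in PWK, and from 126, 120 and 134 to 83.8 and 76.8 in xNOD, which were the 3 genotypes with a call (adjusted p = 4.13e-05, 5.29e-05 and 0.00635). The call in PWK held with each library left out, that in xNOD was lost without any 1 control (adjusted p = 0.037 to 0.0385), and that in B6 fell under 1.5 fold without control 3 or TM 3. TM libraries lay below all controls in all 13 genotypes. Over all genes, 7.85% were lowered in at least 1 founder and 5.47% in at least 1 cross, with 3.22% in B6, 4.3% in PWK, 4.2% in WSB and 4.6% in xNOD.

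Ccnd1 fell by 0.26 in founders and by 0.19 in crosses (adjusted p = 3.42e-06 and 0.00129). Ccnd2 fell by 0.30 and 0.34 (adjusted p = 0.00766 and 0.00114) and varied more between wells, and its averaged founder call was lost when any 1 of 21 of the 40 libraries was left out. In WSB it went from 636 and 723 to 359, 418 and 384 (adjusted p = 0.00393), and in xNOD from 524, 468 and 484 to 243 and 310 (adjusted p = 0.00744). Those calls rest on few wells: the one in WSB was lost without control 2 or 3 or TM 1 or 2, and the one in xNOD without any 1 of its controls. In 129 the TM libraries (305, 450 and 690) covered a range wider than the whole difference. Cdk4, the partner of these cyclins, was not called, at -0.05 and -0.07.

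Of the G1/S genes, E2f1 and Ccne1 fell by 0.22 and 0.23 in founders (adjusted p = 0.00342 and 0.00185) and were at -0.15 and -0.12 in crosses without a call. E2f2 fell by 0.72 ± 0.16 (adjusted p = 0.000268) at the low counts given above, for example from 1.92 and 1.90 to 1.28 and 0.878 in CAST. Ccne2 was at 0.40 ± 0.13 in founders and 0.38 ± 0.15 in crosses, the other way from Ccne1, and was called in neither (adjusted p = 0.0118 and 0.0391). Cdk2 was lowered in crosses by 0.30 (adjusted p = 0.00239) and was at -0.15 in founders (adjusted p = 0.0479).

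Of the 20 mitosis members 6 were raised and 1 lowered in founders, where 20.5% of all genes were raised and 21.9% lowered. In crosses 4 were raised and 1 lowered, where 16.9% and 18.7% of all genes were. Of the rises among mitosis members, 4 of 6 in founders and 3 of 4 in crosses were genes of the kinetochore, spindle and midbody. That role holds 6 members, and neither it nor the mitosis members were tested against genes at large. Tpx2, which activates Aurka on the spindle, rose by 0.36 ± 0.04 (adjusted p = 8.02e-09) and 0.40 ± 0.05 (adjusted p = 1.47e-06). It went from 134 and 137 to 159 and 162 in B6 and from 58.3, 39.1 and 46.8 to 64.2, 66.6 and 69.6 in xWSB, and TM libraries lay above all controls in all 13 genotypes. Nusap1, a microtubule binding protein of the spindle, was raised in founders by 0.42 ± 0.08 and was at 0.29 ± 0.09 in crosses (adjusted p = 3.13e-05 and 0.0101). Cenpe and Kif23, motors of the kinetochore and the midbody, were raised in both sets by 0.18 to 0.28 (Kif23 in crosses not without xNOD TM 2). Kif11, the motor that separates the spindle poles, was at 0.16 and 0.11 and Cenpf, a kinetochore protein, at -0.03 and -0.07, without a call.

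Plk1, the kinase that drives mitotic entry and exit, was the 1 mitosis member lowered. It fell by 0.40 ± 0.05 in founders (adjusted p = 1.81e-08) and by 0.47 ± 0.06 in crosses (adjusted p = 1.59e-06). It went from 93.4 and 108 to 79.4 and 86.5 in CAST, from 49.9 and 54.6 to 35.7, 39.7 and 41.0 in 129, and from 84.7 and 75.8 to 54.8, 54.5 and 50.3 in xCAST. The groups did not overlap in these 3 genotypes. Top2a rose by 0.26 ± 0.06 (adjusted p = 0.00025) and 0.27 ± 0.06 (adjusted p = 0.00128), while Mki67, the chromosome surfactant used as a marker of proliferation, was at -0.02 and -0.22 without a call (adjusted p = 0.029 in crosses). Bub1, a checkpoint kinase, was raised in founders by 0.34 and was at 0.24 in crosses (adjusted p = 0.00025 and 0.0275). The other kinases and checkpoint members, Aurka, Aurkb, Birc5, Bub1b, Cdc20 and Ttk, were called in neither set, with changes from -0.14 (Bub1b in founders) to 0.26 (Birc5 in crosses).

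The cyclins and the kinase that drive mitosis were not called. Cdk1 was at -0.12 in both sets, Ccnb2 at 0.11 and 0.02, and none of Ccna2, Ccnb1, Ccnb2 and Cdk1 was called in either. Plk1 and Tpx2 thus went opposite ways while none of the cyclins of their phase was called.

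The third question was whether the TM change depended on genotype. By the interaction test of limma, 0 of 45 members were called in founders and 0 of 44 in crosses, where 0.174% and 0.0547% of all genes were. At an unadjusted p below 0.05 there were 1 member in founders (Cdc6, with an adjusted p of 0.35 by limma), where 3.91% of all genes were, and 2 in crosses (Gins3 and Ccnd2), where 6.15% were, and edgeR on recovered reads called 0 in either set with 1 and 1 at an unadjusted p below 0.05. An F test of strain on log2(TM / median control) of the founder TM libraries alone called Cdc6 (adjusted p = 0.00559), as it did 439 of 13197 genes. That form takes the control as known without error.

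A wider list of 122 further genes of the same processes was also read, of which 120 were in each set. Without TM, its other replication genes differed between crosses in 32 of 41 (78.0%), its other mitosis genes in 50 of 54 (92.6%) and its Cdk inhibitors, pocket proteins and other regulators in 10 of 25, beside 21.4% of all genes. Cdkn2a, which encodes the inhibitors p16 and p19Arf, was picked after its values were seen. Its control mean was highest in xWSB, where most members were lowest. That mean was lowest in xNOD and not in xCAST, where most members were highest, a span of 2.87 fold (adjusted p = 0.00254). Control means of the other Cdk inhibitors are not given here. A part of Cdkn2a in the low level of xWSB was not tested. With TM, 35 of the 120 were raised and 20 lowered in founders (29.2% and 16.7%), and 29 and 14 in crosses (24.2% and 11.7%), beside 20.5% and 21.9% of all genes in founders and 16.9% and 18.7% in crosses.

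Within genotypes, 7 of 120 wider genes were raised and 2 lowered in at least 1 founder, where 8.15% and 7.85% of all genes were. In at least 1 cross 7 were raised and 3 lowered, where 7.05% and 5.47% of all genes were. Myc, which drives growth genes, was the wider gene raised most often, in 10 of 13 genotypes and by 1.37 and 1.21 on average. Btg2, an inhibitor of proliferation, was raised in 5 genotypes and by 0.61 in both sets, Orc4, another origin recognition subunit, in 3, and Chek1, the checkpoint kinase of replication stress, and Smc4, a condensin, in 2 each. Ccnf, a cyclin of a ubiquitin ligase, was lowered in 3 (CAST, PWK and x129) and by 0.66 and 0.59 on average. Foxm1 and Pole were lowered in xNOD and Cdk6 in WSB, and no other wider gene was lowered in any genotype.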

How the data were processed

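RNA of MEFs was sequenced by the authors as single-end reads, which were trimmed with Trimmomatic, aligned to strain-specific genomes built on mm10 (GRCm38) with TopHat 1.4.1 and scaled by TMM in edgeR. Libraries that did not cluster with their condition had been removed by the authors. The deposited values are called FPKM but are whole multiples of 1 step per library, that is, normalised signal per gene as deposited, not divided by length. Whole reads were recovered for 66 of 68 libraries (all but PWK TM 2 and WSB TM 1, whose step is close to 0.1). The tests had been designed for FPKM and were kept. The F1 tables hold 3 lines that name no gene (15.47% to 24.15% of the signal), which were left out.

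The members and lists were chosen with earlier results of these data known. TM was compared with control by limma 3.58.1 (R 4.3.3, eBayes with trend) on log2(value + 0.1), so fold changes of low genes are understated. Genes with at least 0.5 in at least 2 libraries were tested on the whole table, with Benjamini-Hochberg adjustment and a false discovery rate of 1%. Within a genotype a change of at least 1.5 fold was also needed. Genotypes were averaged with equal weight in 1 fit per set, and interaction and control level were tested by F tests. Tests were checked on simulated data. Groups came from the sample labels. Within xWSB the deviations of all 3 pairs of libraries with the same replicate number correlated (0.165 to 0.327). A block for the number changed no member's call there. Both such pairs also correlated in 129 (0.13 and 0.489) and in NZO (0.301 and 0.316). With the block, limma called Cdc6 as raised in both strains (adjusted p = 0.00222 and 0.000959). Ccne2 and Nusap1 were then called as raised in 129.

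Values in full are given for the lowest and highest averaged founder change in each role, the 5 members of widest founder control range, members called in at least 3 genotypes in 1 direction or in the interaction, the 5 wider genes called most in each direction, and 3 ER stress genes. As alternatives, the pseudocount was set to 1, the filter was dropped or raised to a mean of at least 2, and the libraries were scaled by median of ratios. Others were no trend, array weights, edgeR 4.0.16 on recovered reads, a replicate block, 1 fit over all libraries, leaving out each library and, chosen after seeing the data, leaving out 2 F1 controls with raised markers.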

Additional observations from a re-analysis of the deposited data

Results flagged for a closer look

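For some members every TM library lay above every control in one genotype and below in another. None of these members was called in any genotype, where groups hold 2 or 3 libraries. In groups so small, such an order can arise without a TM effect. The share of all genes with such a reversal was not counted, so the reversals cannot be called particular to the members. The difference between those genotypes was not tested gene by gene, and the interaction test called 0 members in either set. All values are log2 differences of TM from control.

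In founders, Cdk4 was at 0.31 in WSB and at -0.15 in B6, -0.15 in CAST and -0.18 in NOD. Aurkb, the kinase of the chromosomal passenger complex, was at 0.20 in B6, 0.06 in NOD and 0.20 in WSB, and at -0.25 in 129, -0.21 in CAST and -0.14 in PWK. Aurka, the spindle pole kinase, was at 0.28 in WSB and -0.17 in CAST. CAST was on the lower side for each of these kinases.

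Of the MCM genes, Mcm3 was at 0.21 in WSB and at -0.18 in B6 and -0.26 in CAST, and Mcm6 at 0.04 in B6 and -0.13 in CAST. Cenpf was at 0.14 in NZO and at -0.07 in B6 and -0.20 in CAST. Mki67 was at 0.23 in NOD and at -0.13 in B6 and -0.58 in WSB, so that of the values given here WSB had the lowest for Mki67 and the highest or joint highest for the other 4 genes named for it. Without WSB control 2, which stood apart, WSB was at 0.30 for Cdk4, 0.23 for Aurkb, 0.11 for Aurka, 0.15 for Mcm3 and -0.84 for Mki67.

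In crosses, xNOD was on the higher side for 3 genes. Cdc20, the activator of the anaphase promoting complex, was at 0.13 in xNOD and -0.29 in x129, Aurka at 0.23 in xNOD and -0.13 in x129, and Gins3 at 0.44 in xNOD and -0.29 in xWSB. Mcm7 was at 0.30 in xWSB and -0.06 in xNOD.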

How the results depend on the processing

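For genes chosen by the naming rule, no averaged change with a call reversed its sign under any alternative run. Other results were not checked for direction in this way. Of the values for genes chosen by the naming rule, 2646 stayed on their side of the threshold, 27 gained a call and 9 lost one. Of the counts and indices, 882 stayed near the reported value and 35 moved. No label says that a replicate number marks a shared source. Over 29 pairs of libraries with the same number the correlation of deviations ran from -0.64 to 0.49, and 11 were over 0.1, so that the numbers were not taken to pair the samples across the set. With the replicate block, members raised over founders went from 9 to 5 and lowered from 10 to 4, and 9 of the 19 calls were kept, without Bub1, Ccnd2, Ccne1, Cenpe, E2f1, E2f2, Mcm10, Mcm5, Nusap1 and Rrm2. In crosses 12 of 14 were kept, without Kif23 and Mcm5. Within founders, members raised in at least 1 strain went from 1 to 3 with the block, and members lowered from 2 to 1 with the block, without trend, by edgeR and in 1 fit. Within crosses, members raised went from 1 to 2 with the block, by edgeR and in 1 fit, and members lowered from 2 to 1 with the block or without the 2 controls with raised markers, to 0 without trend and to 3 in 1 fit. Leaving out those 2 controls kept all 14 averaged calls of the crosses. Cdc6 was raised in 9 genotypes, in 4 without trend, in 12 in 1 fit and in 8 with the block, 129 and NZO among them. Ccnd3 was lowered in 3 genotypes and in 1 (PWK) with the block or without trend. The block could not be fitted in B6 and CAST. Without the 2 controls with raised markers Cdc6 was raised in 3 crosses instead of 4, and Ccnd3 was lowered in xNZO instead of xNOD. The F test on TM libraries alone called 1 member in the founder interaction instead of 0. With a pseudocount of 1 the control span of the indices fell from 0.51 to 0.41 for G1 and G1/S in founders (0.35 with members of mean at least 2), and in crosses from 1.65 to 1.53 for replication, from 0.72 to 0.65 for G1 and G1/S and from 2.18 to 2.07 for mitosis. Where a value moved, the cause was not tested.

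Leaving out 1 library gave 1 to 3 members raised within founders (2 without 129 TM 3, 3 without NZO TM 3), 1 to 2 lowered (1 without either WSB control or without WSB TM 1 or 2), 1 to 4 raised within crosses (4 without xNOD TM 2) and 0 to 3 lowered (0 without any 1 xNOD control). The founder control span ran from 0.82 to 1.02 for replication, 0.44 to 0.58 for G1 and G1/S and 0.82 to 1.01 for mitosis, the ends being set by the WSB controls. The mitosis span of the crosses ran from 2.11 to 2.23. Members whose control level differed ran from 22 to 40 in founders and from 36 to 39 in crosses. Depth limits E2f2, Gins1 and, in xWSB, the lowest members.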
